A study of Mus musculus with 9 samples.

Results

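Cell cycle exit in mouse muscle cells was followed through the mRNA of 10 genes, the D-type cyclins Ccnd1, Ccnd2 and Ccnd3, the inhibitors Cdkn1a, Cdkn1b, Cdkn1c and Cdkn2c, and the pocket proteins Rb1, Rbl1 and Rbl2. They were listed by gene symbol for their known roles, under a rule that sets no condition on their values. The list was nevertheless chosen with earlier results of these data known. All 10 were found by Ensembl identifier among the 46078 genes listed for cultured cells and the 38293 listed for muscle tissue. All are protein-coding genes. In MT, Ccnd1 mRNA was lower than in MB and Cdkn1a and Rb1 mRNA were higher, while no member passed the threshold after lactate treatment.

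A myoblast stops dividing for good before it fuses into a myotube. D-type cyclins activate CDK4 and CDK6, which phosphorylate the pocket proteins RB, p107 and p130 and so release E2F transcription factors that switch on genes of DNA replication. The INK4 inhibitors, such as p18 from Cdkn2c, bind CDK4 and CDK6, and the CIP/KIP inhibitors p21, p27 and p57, from Cdkn1a, Cdkn1b and Cdkn1c, bind cyclin-CDK complexes, which keeps pocket proteins active on E2F.

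Primary myoblasts (MB) of C57BL/6 mice, kept in a growth medium rich in serum and basic FGF, were sequenced in 2 control libraries that received PBS and in 2 libraries treated with 10 mM sodium-L-lactate (MB_lac). Myotubes (MT, 2 control libraries) were obtained from such cells by 3 days in a medium low in serum, and the gastrocnemius muscle (GAS) of C57BL/6 mice was sequenced in 3 libraries. The animals for muscle, C57Bl6/J in the methods of the study, were female and between 8 and 12 weeks old. The labels name no transgene or deletion in any group. Lactate was given to MB only in the libraries used, at a single dose, and GAS is whole tissue.

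Reads counted per library numbered 19307793 to 19941574 in GAS and 5198247 to 10839516 in cultured cells, with the fewest in MB_lac replicate 2. Among muscle markers, Myog was at 85.0 and 37.1 CPM (read counts relative to library size, TMM-normalized) in MB and at 739 and 1025 CPM in MT. Myh4, which had no counts in MB, was at 59641 to 68765 CPM in GAS. Des, Ckm, Acta1, Mymk and Myh4 were also higher in both MT libraries than in both MB libraries. Myod1 (1184 and 705 CPM in MB, 139 and 378 CPM in MT) and Pax7 (25.1 and 20.6 CPM, 1.04 and 1.65 CPM) were lower. Mymk had at most 0.304 CPM in GAS. MT replicate 1 stood apart with 28599 genes detected against 17965 in MT replicate 2, and its summed endothelial markers reached 16.8 CPM against 0 CPM. All 5 fibroblast markers had counts in MT, where they summed to 24033 and 14563 CPM in replicates 1 and 2, against 473 and 234 CPM in MB. Most of these sums came from Col1a1 (13116 and 1762 CPM in MT) and Col3a1 (10497 and 12688 CPM in MT, 470 and 232 CPM in MB). Dcn, at 408 and 110 CPM in MT, had 0 and 2 counts in MB. Pdgfra was at 5.66 and 2.54 CPM in MT and 1.59 and 1.45 CPM in MB. Lum was at 6.03 and 0.763 CPM in MT, with no counts in MB. The part of these markers in the results was not tested. A ribosomal RNA gene, CT010467.1, took 9.20% of counts in MB replicate 1 and 13.8% in MB_lac replicate 1 against at most 0.575% in the other cultured libraries. In such bulk samples fewer cells with a transcript and less transcript per cell cannot be told apart.

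MT and MB were compared to ask which genes of the exit machinery differ between dividing and differentiated cells. Genes were called at an adjusted p under 0.05 in edgeR's quasi-likelihood test with an absolute log2 fold change over 0.5, over 12921 genes tested. Of the 10 members, 9 passed the filter on low counts, 2 were called higher in MT (Cdkn1a and Rb1) and 1 lower (Ccnd1). Over all genes tested, 11.0% were called higher, 6.86% lower and 17.9% in either direction. The median log2 fold change was 0.80 over the 9 members and 0.07 over all genes tested. Both MT libraries lay above both MB libraries for 5 of the 9 members and below them for 3, whereas 32.9% and 29.2% of all genes tested showed these patterns. With either MT replicate left out no member was called higher, and without MB replicate 2 only Rb1 was, while Ccnd1 was called lower in each of these fits. In a fit without a library, the lone library of its group is assumed to vary like those of the other group.

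**Figure D1:**
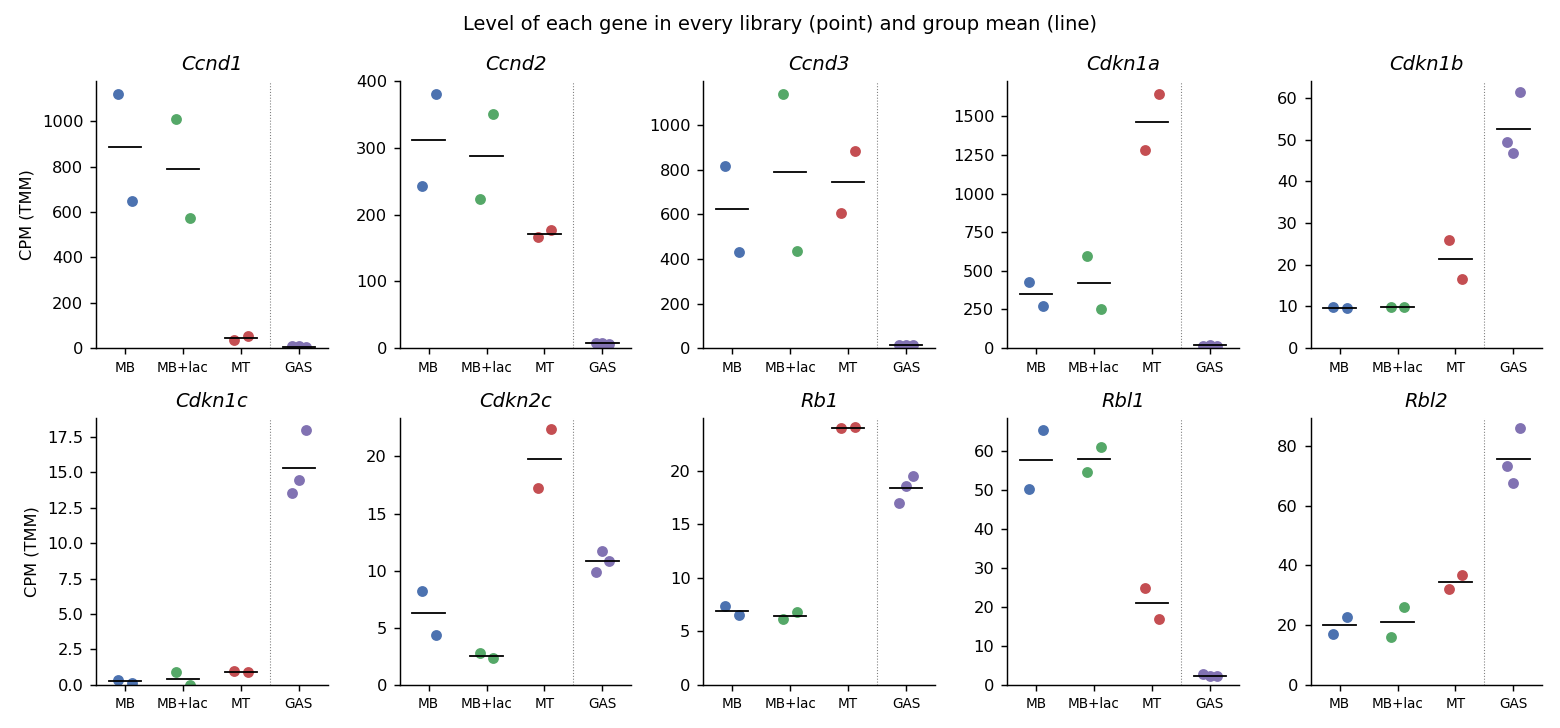
Level of each of the 10 genes in CPM (linear axes from 0) in every library of MB, lactate-treated MB (MB+lac), MT and GAS, with a line at each group mean. The dotted line separates GAS, whose libraries were made by another protocol and normalized separately. Ccnd1 is at 650 and 1121 CPM in MB and at 36.2 and 51.5 CPM in MT, while Cdkn1a and Rb1 are higher in both MT libraries than in both MB libraries.

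Ccnd1, on the minus strand of chr7:144929931-144939925 (mm10), encodes cyclin D1, which growth factors induce in dividing cells. It measured 1121 and 650 CPM in MB and 36.2 and 51.5 CPM in MT. The groups were far apart and did not overlap. The level in MT was 20.7-fold lower, a log2 fold change of -4.37 (SE 0.59, 95% interval -5.69 to -3.06, edgeR adjusted p = 0.000990). Exons of LTO1 on the opposite strand overlap 1100 bases, or 23.4%, of its exonic length, and reads of these genes cannot be told apart there because the counting of strand is not stated. LTO1 itself had 137 and 184 counts in MB and 287 and 307 in MT, against 9149 and 5394 counts of Ccnd1 in MB.

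Ccnd2 (chr6:127125162-127152193, minus strand) encodes cyclin D2. Its level was 244 and 381 CPM in MB and 166 and 177 CPM in MT, so the groups did not overlap, with a log2 fold change of -0.85 (SE 0.45, 95% interval -1.84 to 0.14, edgeR adjusted p = 0.216) that did not pass. Ccnd3 (chr17:47505051-47599691, plus strand) encodes cyclin D3, the D-type cyclin known to be retained in differentiating muscle cells. It measured 818 and 430 CPM in MB and 607 and 886 CPM in MT. These ranges overlapped, and the log2 fold change was 0.22 (SE 0.55, 95% interval -1.01 to 1.44, edgeR adjusted p = 0.823). A processed copy on chromosome 4, Ccnd3-ps, is 96.6% identical over 417 bases and had 6 to 19 counts per cultured library, against 2440 counts or more of Ccnd3.

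Levels of different genes were compared per length, as RPKM over the union of each gene's exons. In MB, Ccnd1 was the highest of all 10 members at 188 ± 71 RPKM (SD, n = 2), above 98.8% of 21596 protein-coding genes. It held 66.6% and 60.7% of the summed RPKM of the 3 D-type cyclins in MB and 8.12% and 8.37% in MT. Ccnd3 went the other way, from 26.1% and 21.5% in MB to 73.2% and 77.3% in MT. Ccnd2 held 7.24% and 17.8% in MB and 14.4% and 18.7% in MT, and these shares overlapped. With the length of the longest transcript in place of the union, Ccnd3 still held the most in MT, at 81.4% and 84.6%. An exact permutation test of 2 against 2 libraries cannot go below p = 0.333, so the shares are given without a test.

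**Figure D2:**
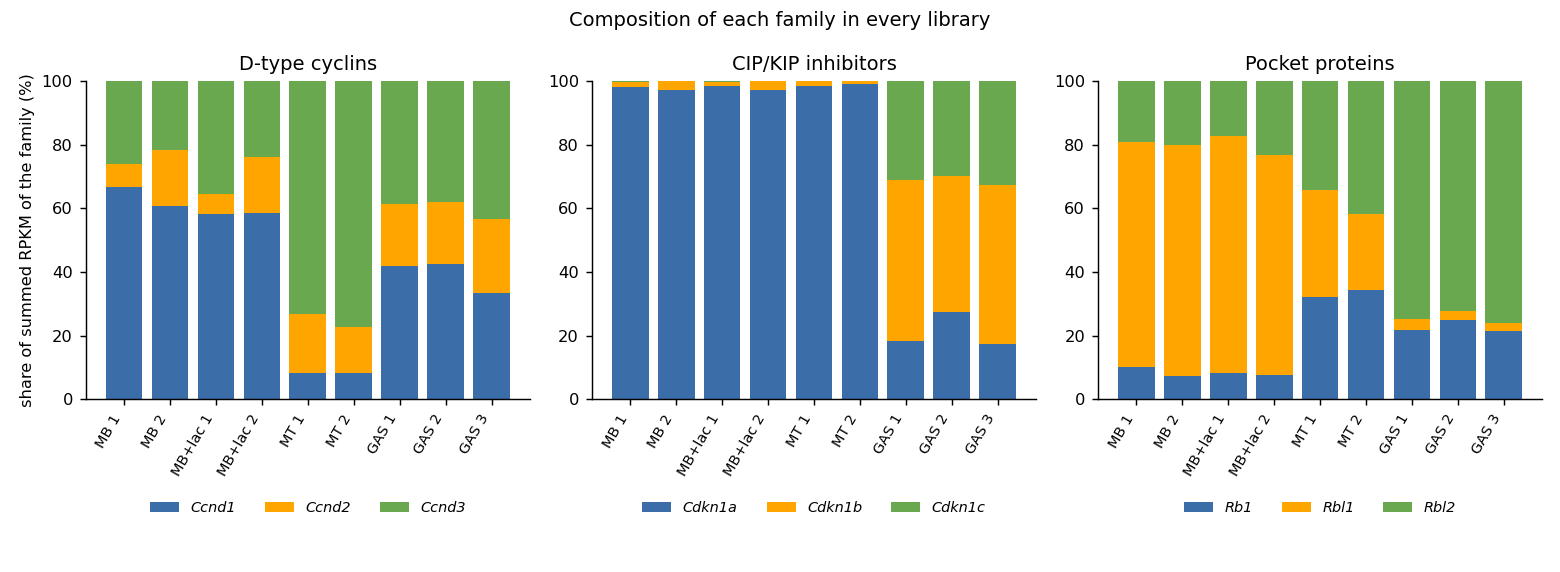
Share (%) of each member in the summed RPKM of its family, per library, with every bar adding to 100%. Among D-type cyclins the largest share is that of Ccnd1 in MB (60.7% and 66.6%) and that of Ccnd3 in MT (73.2% and 77.3%). Cdkn1a fills almost the whole of the CIP/KIP bars in cultured cells, and Rbl1 gives way to Rb1 and Rbl2 among pocket proteins.

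The catalytic partners and activators of these cyclins were read from a list of 15 genes (CDKs, other cyclins, CDC25 phosphatases and the CDK-activating kinase). All 15 were tested, 9 were called lower in MT and none higher, with a median log2 fold change of -1.91 against 0.07 over all genes. The shares over all genes tested, 11.0% called higher and 6.86% lower, apply to this and each later list of MT against MB. Cdc25c, a phosphatase that activates CDK1, fell from 39.6 and 37.7 CPM in MB to 5.51 and 2.67 CPM in MT (log2 fold change -3.20, edgeR adjusted p = 0.00530). Ccnb1, the mitotic cyclin B1, went from 233 and 289 CPM to 47.1 and 19.7 CPM (-2.92, edgeR adjusted p = 0.00553). Cdk1 went from 404 and 437 CPM to 61.2 and 52.7 CPM (-2.87, edgeR adjusted p = 0.00282). The direct partners of D-type cyclins, Cdk4 and Cdk6, were also called lower, with log2 fold changes of -2.08 and -2.28. The CDK-activating kinase genes Cdk7, Ccnh and Mnat1 had values between 0.01 and 0.13 and were not called. Without MT replicate 1 the list had 5 genes called lower.

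Cdkn1a, on the plus strand of chr17:29090976-29100727, encodes p21, the inhibitor known to be induced in differentiating myoblasts and by p53. It measured 427 and 272 CPM in MB and 1282 and 1647 CPM in MT. Both MT libraries lay far above both MB libraries, by 4.11-fold, with a log2 fold change of 2.04 (SE 0.57, 95% interval 0.78 to 3.30, edgeR adjusted p = 0.0320). In MT it was the highest member at 412 ± 72 RPKM (SD, n = 2), above 99.6% of protein-coding genes. The call was lost with MT replicate 1, MT replicate 2 or MB replicate 2 left out (adjusted p = 0.0860, 0.0798 and 0.168) and with the replicate number as a block (0.0607), with log2 fold changes from 1.62 to 2.38 over the 4 libraries left out in turn.

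RefSeq lists 2 starts of Cdkn1a, and the 250 bases before each are shown because the gene was called higher and is a textbook p53 target. Capitals mark CATG, any 6 bases, CATG in the upstream start, and GGGCGG, the core of Sp1 sites, in the downstream start (chr17:29090729-29090978 and chr17:29093519-29093768, GRCm38.p6, plus strand).
Cdkn1a upstream start: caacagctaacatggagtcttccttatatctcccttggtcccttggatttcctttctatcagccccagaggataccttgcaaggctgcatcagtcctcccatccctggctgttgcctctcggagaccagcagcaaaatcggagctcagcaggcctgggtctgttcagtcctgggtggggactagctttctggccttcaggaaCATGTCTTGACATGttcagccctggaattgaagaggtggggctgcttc
Cdkn1a downstream start: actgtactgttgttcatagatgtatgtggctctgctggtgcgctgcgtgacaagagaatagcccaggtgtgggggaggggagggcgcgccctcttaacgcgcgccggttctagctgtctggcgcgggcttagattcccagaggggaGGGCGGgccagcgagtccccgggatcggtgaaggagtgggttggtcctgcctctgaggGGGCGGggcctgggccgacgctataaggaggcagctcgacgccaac

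The CATG pair spans bases 48 to 35 before the upstream start, and 0.490% of 32851 RefSeq promoters of the same length hold such a pair on either strand. GGGCGG was found at 2 places before the downstream start, where 32.7% of promoters hold it at least in 1 place. Such matches describe letters only. No read of these data is assigned to a start.

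All 15 genes in the list of p53 and its target genes were tested, with a median log2 fold change of -0.59. In MT 4 were called higher (Pmaip1, Fas, Btg2 and Eda2r) and 5 lower (Trp53, Zmat3, Sesn2, Bax and Aen). Over all genes tested these shares were 11.0% and 6.86%. Trp53 itself, the gene of p53, went from 553 and 391 CPM in MB to 50.7 and 115 CPM in MT (log2 fold change -2.56, edgeR adjusted p = 0.00954). Pmaip1, which encodes the cell death protein NOXA, went from 0.858 and 2.05 CPM to 49.7 and 53.4 CPM (5.16, edgeR adjusted p = 0.000461). Fas, a death receptor, had at most 0.858 CPM in MB and 15.9 and 16.0 CPM in MT. Btg2, an antiproliferative gene, rose from 15.1 and 9.16 CPM to 72.1 and 98.7 CPM. Mdm2, the ligase that degrades p53, measured 116 and 237 CPM in MB and 131 and 157 CPM in MT and was not called. Without MT replicate 1, 4 genes were called higher and none lower, and without MT replicate 2 or MB replicate 1 the lower calls numbered 1 and 2.

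Cdkn1b (chr6:134920401-134925513, plus strand) encodes p27, an inhibitor held mostly at the protein level. It measured 9.80 and 9.64 CPM in MB and 26.0 and 16.7 CPM in MT. The groups did not overlap, yet the log2 fold change of 1.15 (SE 0.55, 95% interval -0.06 to 2.36, edgeR adjusted p = 0.172) did not pass. Cdkn1c (chr7:143458339-143461050, minus strand) encodes p57 and is an imprinted gene. It had 3 and 1 counts in MB and 13 and 7 counts in MT and was left out of the test by the filter. Over the summed counts the ratio of MT to MB was 3.86, with an exact 95% interval of 1.29 to 15.5 that covers counting error only. An antisense gene, Gm44732, shares 30.7% of the exonic length of Cdkn1c, so that the strand of these few reads is not known.

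Cdkn1a thus held 97.2% to 98.1% of the summed CIP/KIP RPKM in MB and 98.3% to 99.1% in MT. Cdkn1b held 1.76% and 2.69% in MB and 1.55% and 0.783% in MT. The share of Cdkn1c stayed at or under 0.147% in both groups.

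Cdkn2c (chr4:109660876-109667189, minus strand) encodes p18, the INK4 inhibitor known from differentiated muscle cells. It measured 8.21 and 4.34 CPM in MB and 17.2 and 22.4 CPM in MT. Both MT libraries were higher, with a log2 fold change of 1.62 (SE 0.60, 95% interval 0.30 to 2.94) and an edgeR adjusted p of 0.0854, which did not pass. With MB replicate 1 left out the adjusted p was 0.00893, and with each of the other 3 libraries left out it lay between 0.216 and 0.236. Of the 3 other INK4 genes, Cdkn2b (p15) was called lower, from 64.6 and 60.3 CPM in MB to 5.29 and 7.88 CPM in MT (log2 fold change -3.26, edgeR adjusted p = 0.00206). Cdkn2a had a log2 fold change of -2.43 (adjusted p = 0.108) and at most 2.53 CPM in any cultured library, and Cdkn2d (p19) one of 0.74 (adjusted p = 0.356).

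The summed RPKM of the 4 inhibitors was 0.351 and 0.353 of that of the 3 D-type cyclins in MB and 3.95 and 3.64 of it in MT. For Cdkn1a over Ccnd1 alone the ratio in CPM was 0.381 and 0.418 in MB and 35.4 and 32.0 in MT. Both ratios describe mRNA and not the amounts of protein.

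Turnover of cyclins and inhibitors was read from 11 genes of ubiquitin ligases and their partners. Of these, 2 were called lower and none higher, with a median log2 fold change of -0.20. Calls in either direction were 17.9% of all genes tested, so this count is near that share. Cks1b went from 288 and 287 CPM in MB to 41.6 and 54.7 CPM in MT (log2 fold change -2.59, edgeR adjusted p = 0.00368), and Skp2 from 66.9 and 77.7 CPM to 25.0 and 19.2 CPM (-1.69, edgeR adjusted p = 0.0283). Skp2 is the F-box protein that marks p27 for degradation, with Cks1b as its cofactor. With either MT replicate left out, a single gene of this list was called lower.

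**Figure D3:**
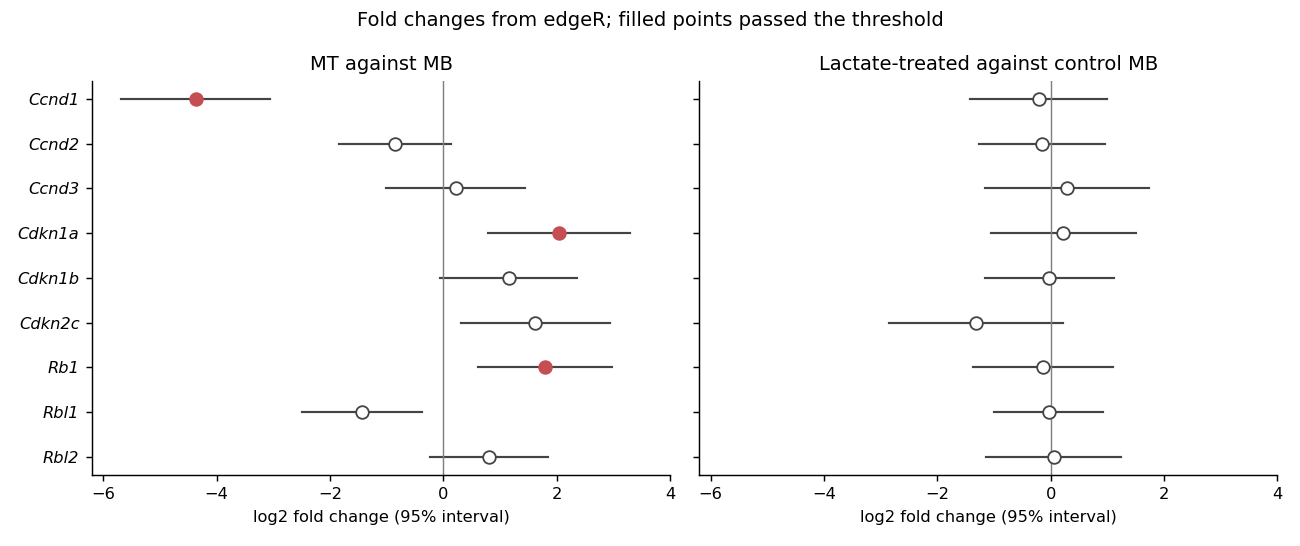
Log2 fold change with its 95% interval from edgeR for the 9 members tested, MT against MB on the left and lactate-treated against control MB on the right. Filled points passed the threshold of their comparison, which were Ccnd1 (-4.37), Cdkn1a (2.04) and Rb1 (1.79) in MT against MB and none for lactate. Cdkn1c was not tested.

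Rb1 (chr14:73183673-73325822, minus strand) encodes RB, the pocket protein needed for lasting exit from the cell cycle in muscle. It measured 7.35 and 6.51 CPM in MB and 24.0 CPM in each MT library. The groups were well separated, by 3.45-fold, with a log2 fold change of 1.79 (SE 0.53, 95% interval 0.61 to 2.97, edgeR adjusted p = 0.0418). The call was lost without MT replicate 1 (adjusted p = 0.230) or MT replicate 2 (0.110). Exons of Rcbtb2 and Lpar6 on the opposite strand overlap 8.11% and 6.78% of its exonic length. In MB, Rcbtb2 had 554 and 657 counts and Lpar6 80 and 262, above the 60 and 54 counts of Rb1. In MT, Rcbtb2 had 375 and 360 counts and Lpar6 118 and 49, against 322 and 189 of Rb1. How far reads from the shared exons enter the counts of Rb1 was not tested.

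Rbl1 (chr2:157145893-157204534, minus strand) encodes p107, which is itself under E2F control and abundant in cycling cells. It measured 50.2 and 65.4 CPM in MB and 24.9 and 16.9 CPM in MT. Both MT libraries were lower, with a log2 fold change of -1.44 (SE 0.48, 95% interval -2.50 to -0.38), and the edgeR adjusted p of 0.0611 missed the threshold. DESeq2 gave an adjusted p of 0.0289. With edgeR it was 0.00901 and 0.0273 without MB replicate 1 and MB replicate 2, and 0.202 and 0.222 without MT replicate 1 and MT replicate 2, and the other alternatives lay between 0.0494 and 0.0914.

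The 250 bases before the RefSeq start of Rbl1 are shown because E2F is known to act on this gene (chr2:157204535-157204784, GRCm38.p6, minus strand). Capitals mark CCGCCC, which is GGGCGG on the other strand, then CAGCTG, an E-box that myogenic factors can bind, and TTTCGCGC, an E2F sequence.
Rbl1 start: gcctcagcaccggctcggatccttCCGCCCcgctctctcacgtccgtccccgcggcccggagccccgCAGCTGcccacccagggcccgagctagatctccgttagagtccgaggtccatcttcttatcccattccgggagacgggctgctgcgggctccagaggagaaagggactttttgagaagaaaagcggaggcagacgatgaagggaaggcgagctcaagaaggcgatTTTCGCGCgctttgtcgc

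The E2F letters lie 18 to 11 bases before the start. Of 32851 promoters, 1.86% hold TTTCGCGC, TTTGGCGC, TTTCCCGC or TTTGCCGC on either strand, and 13.0% hold CAGCTG. Promoters were matched for 6 of the 10 members and 9 starts, and Rbl1 was the only start with E2F letters, while TTTGAA, the CHR element bound by MuvB complexes, was found in that of Rbl2 alone. CHR letters are in 16.0% of promoters.

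Rbl2 (chr8:91070057-91123844, plus strand) encodes p130, the pocket protein that is typical of resting cells. It measured 17.0 and 22.8 CPM in MB and 32.2 and 36.8 CPM in MT, without overlap, and its log2 fold change of 0.80 (SE 0.47, 95% interval -0.24 to 1.84, edgeR adjusted p = 0.267) did not pass. Aktip on the opposite strand overlaps 9.17% of its exonic length. Aktip had 224 and 316 counts in MB and 1317 and 516 in MT. Rbl2 had 139 and 189 counts in MB and 433 and 289 in MT. How far reads from the shared exons enter the counts of Rbl2 was not tested.

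The shares of the pocket proteins in their summed RPKM differed between MB and MT, while the sum itself was 11.9 and 15.0 in MB and 12.4 and 11.7 in MT. Rbl1 held 70.7% and 72.7% of this sum in MB and 33.5% and 24.2% in MT. Rb1 held 10.3% and 7.21% in MB and 32.1% and 34.2% in MT. Rbl2 held 19.0% and 20.1% in MB and 34.4% and 41.6% in MT. None of the 3 shares overlapped between the groups, but shares within a library add to a fixed total and so do not move independently. Of the 3 genes only Rb1 was called. The order in MT (Rbl2, Rb1, Rbl1) rested on means of 4.56, 3.99 and 3.49 RPKM, of which the last 2 overlapped between replicates.

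Among the partners of pocket proteins, 4 of 10 E2F and DP genes were called lower in MT, against 6.86% of all genes tested. None was called higher, and the median log2 fold change was -0.69, in a range from -2.17 to 1.08. The 4 were E2f7 (-2.17), E2f3 (-1.93), Tfdp1 (-1.66) and E2f8 (-1.42), of which E2f7 and E2f8 are repressors and Tfdp1 the dimer partner DP1. E2f1, an activator, measured 26.2 and 21.0 CPM in MB and 51.4 and 49.1 CPM in MT and was not called (1.08, edgeR adjusted p = 0.134). Of 7 genes of the MuvB complex and its partners, 2 were called lower and none higher, with a median of -0.94. Foxm1, an activator of mitotic genes, went from 71.9 and 45.0 CPM to 8.41 and 8.39 CPM (-2.81, edgeR adjusted p = 0.00530), and Mybl2, the gene of B-Myb, from 68.3 and 28.2 CPM to 12.1 and 4.58 CPM (-2.52, edgeR adjusted p = 0.0273). Without MT replicate 1, none of the 10 E2F and DP genes was called, and without MT replicate 2, 1 was. The MuvB list had 1 lower call without MT replicate 2.

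E2F and MuvB complexes act on genes of replication and mitosis. Of 24 such genes 22 were called lower in MT and none higher, with a median log2 fold change of -2.68 and a range from -3.38 to -1.36. Cdt1, which licenses replication origins, went from 146 and 110 CPM in MB to 6.03 and 19.5 CPM in MT (-3.38, edgeR adjusted p = 0.00380). Mcm5, a subunit of the replicative helicase, went from 354 and 228 CPM to 16.9 and 43.0 CPM (-3.33, edgeR adjusted p = 0.00339), and Cdc20, an activator of the anaphase-promoting complex, from 463 and 407 CPM to 60.5 and 30.8 CPM (-3.23, edgeR adjusted p = 0.00331). The 2 that were not called were Mki67 (-1.36, adjusted p = 0.143) and Bub1 (-1.76, adjusted p = 0.0888), in both of which MB replicate 1 was far below MB replicate 2. With MT replicate 1 left out, 12 of the 24 were called lower.

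**Figure D4:**
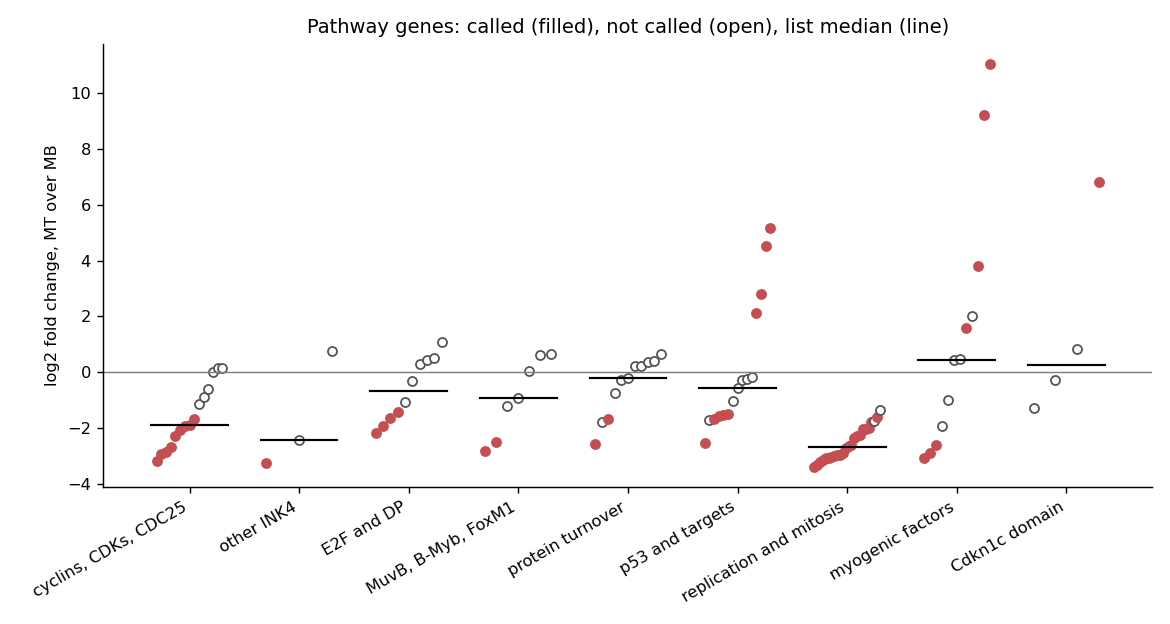
Log2 fold change of MT over MB for each tested gene of 9 pathway lists, sorted within a list, with filled points for called genes and a line at the list median. In the list of replication and mitosis genes, 22 of 24 points are filled and all lie between -3.38 and -1.36, and of the lists shown those of p53 targets and of myogenic factors have filled points on both sides of 0. Myf6 and Kcnq1 had no counts in MB, so their plotted values depend on the prior count of the fit.

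Transcription factors of myoblasts known to act on these genes included 13, of which 12 were tested, 4 were called higher (Myf6, Mef2c, Myog and Mef2a) and 3 lower (Id1, Myc and Id3). Their median log2 fold change was 0.44, also with Myf6 at its bound. Myog, which drives terminal differentiation, had a log2 fold change of 3.81 (edgeR adjusted p = 0.00276), and Mef2c rose from 1.35 and 0.964 CPM to 526 and 898 CPM. Myf6 had no counts in MB and 40.5 and 14.0 CPM in MT, at least 74.7-fold higher when 3 counts per MB library are taken as the limit. Myod1, which is known to induce Cdkn1a, measured 1184 and 705 CPM in MB and 139 and 378 CPM in MT (-1.93, edgeR adjusted p = 0.0528). Myc, known to repress Cdkn1a, went from 245 and 189 CPM to 33.1 and 24.3 CPM (-2.92, edgeR adjusted p = 0.00282), and Id1 and Id3, which block myogenic factors, had values of -3.07 and -2.63. Without MT replicate 1, 1 gene of this list was called lower.

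Of 6 genes of the imprinted domain of Cdkn1c on chromosome 7, 4 were tested, with a median log2 fold change of 0.27, and Kcnq1 was the single one called higher. It had no counts in MB and 1.41 and 1.53 CPM in MT, at least 4.03-fold higher against the same limit, and it was not called with either MT replicate left out. Kcnq1ot1, the long RNA that silences the domain on the paternal copy, measured 4.41 and 39.7 CPM in MB and 43.5 and 30.1 CPM in MT, which overlapped (0.82, edgeR adjusted p = 0.497).

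Lactate-treated and control MB were compared to ask whether lactate alone moves these genes in dividing cells. Genes were called at a nominal p under 0.01 and an absolute log2 fold change over 0.5. No member passed, and neither did any of the 11804 genes tested with edgeR, a share of 0%, where 5 genes had a nominal p under 0.05 and DESeq2 called 1. The smallest adjusted p of edgeR over all genes was 0.999972. None of the genes of the 9 pathway lists was called. With 5 of 11804 genes under a nominal p of 0.05, far below a share of 0.05, the p-values of this edgeR fit ran high. Its lack of calls therefore cannot show that lactate had no effect. With the replicate number as a block, edgeR called 7 genes higher and 6 lower, no member among them. The study reported a small group of genes called in each direction with edgeR at the same thresholds. It does not describe its fit in detail, and the difference was not traced.

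Cdkn2c had the largest absolute log2 fold change of the members tested and was the only one whose groups did not overlap, but it was not called. It measured 8.21 and 4.34 CPM in control MB and 2.81 and 2.31 CPM in MB_lac, from 67 and 36 counts against 16 and 13. Both treated libraries were below both controls, a pattern that 6.84% of all genes tested showed. The log2 fold change was -1.32 (SE 0.63, 95% interval -2.86 to 0.22, edgeR adjusted p = 0.999972). The nominal p of this fit across all genes was 0.0805 and did not pass the threshold of 0.01.

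For the other 8 tested members the treated and control libraries overlapped. Ccnd1 measured 1008 and 573 CPM in MB_lac, with a log2 fold change of -0.21 (95% interval -1.42 to 1.00). Cdkn1a measured 593 and 251 CPM, with a log2 fold change of 0.23 (95% interval -1.05 to 1.50). Rb1, at 6.15 and 6.76 CPM, had a value of -0.13 (95% interval -1.37 to 1.10).

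These 3 intervals include changes of 2-fold in either direction, so this fit, which has no replicate block, could not exclude differences of that size. Across genes, edgeR's estimate of the relative spread between replicates was 0.455 in this fit and 0.2245 with the replicate number as a block. Ccnd3 had the highest value at 0.29 (95% interval -1.16 to 1.73), with 1141 and 434 CPM in the treated libraries. The values of Ccnd2, Cdkn1b, Rbl1 and Rbl2 were -0.15, -0.02, -0.03 and 0.05. Cdkn1c had 5 and 0 counts in MB_lac, where 3 counts correspond to 0.527 and 0.533 CPM, and was not tested.

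Part of the spread followed the replicate number. Replicate 1 was above replicate 2 in both control and treated MB for Ccnd1, Ccnd3, Cdkn1a and Cdkn2c, and below it for Ccnd2, Rbl1 and Rbl2. It was also above for Cdkn1b, by a small margin (9.80 and 9.64 CPM in MB, 9.84 and 9.78 CPM in MB_lac), and for Cdkn1c, with at most 5 counts. For Rb1 the order turned. Taken number by number, Cdkn2c had log2 ratios of -1.55 and -0.91, Ccnd1 of -0.15 and -0.18 and Cdkn1a of 0.47 and -0.11. The sum of inhibitors over D-type cyclins was 0.464 and 0.354 in MB_lac against 0.351 and 0.353 in MB, and the shares of Ccnd1 among D-type cyclins were 58.2% and 58.4% against 66.6% and 60.7%.

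In GAS, levels were described and not tested against cultured cells, because its libraries, from poly(A) RNA, and the Smart-seq2 libraries of the cultures differ in protocol. Inhibitors and Rbl2 led the 10 members. Cdkn1b had the highest mean at 11.5 ± 1.7 RPKM (SD, n = 3), from 10.3 to 13.5, and Rbl2 followed at 9.99 ± 1.25 RPKM, from 8.92 to 11.4. These ranges overlapped, and with the length of the longest transcript Rbl2 led instead, at 13.7 to 17.5 RPKM, without overlap with Cdkn1b. Cdkn1b exceeded 89.2% of 21250 protein-coding genes in GAS.

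Cdkn1c came next at 7.52 ± 1.14 RPKM, from 6.65 to 8.81, in contrast with its 20 counts over both MT libraries, and it had 267 to 346 counts per GAS library. Cdkn1a, at 3.96, 6.53 and 4.67 RPKM, and Cdkn2c, at 3.69, 4.35 and 4.04 RPKM, overlapped each other. With the longest transcript Cdkn1a was at 8.63 RPKM and overlapped Cdkn1c at 8.06 RPKM, so the place of Cdkn1c depends on the length used. Rb1 measured 3.05 ± 0.21 RPKM and was below both in every library.

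The D-type cyclins and Rbl1 had the lowest levels. Ccnd1 at 1.62, 1.62 and 1.04 RPKM and Ccnd3 at 1.49, 1.44 and 1.34 RPKM overlapped, Ccnd2 was at 0.735 ± 0.015 RPKM, and Rbl1 was lowest at 0.395 ± 0.054 RPKM. Exonic lengths matter here, since with the longest transcript Ccnd3 was at 3.23 RPKM and Ccnd1 at 1.79 RPKM.

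**Figure D5:**
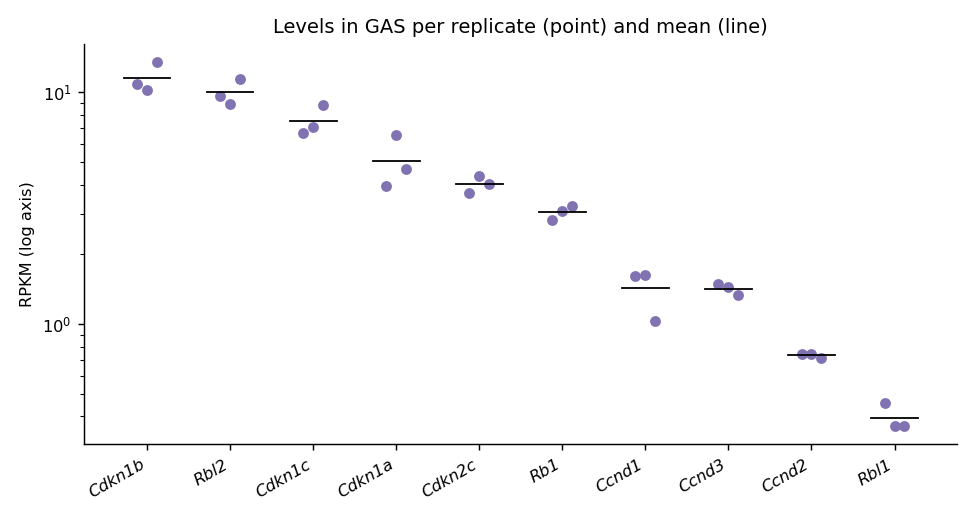
RPKM (log axis) of the 10 members in GAS, 3 replicates as points and the mean as a line, ordered by mean. Cdkn1b and Rbl2 overlap at the top, Rbl1 is lowest at 0.363 to 0.457 RPKM, and the 3 D-type cyclins lie below all inhibitors.

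Within families, GAS differed in make-up from the cultured cells, given here side by side without a test. Cdkn1a held 17.3% to 27.3% of CIP/KIP RPKM, Cdkn1b 43.0% to 50.5% and Cdkn1c 29.7% to 32.6%. With the longest transcript Cdkn1a held 25.8% to 38.4% and overlapped Cdkn1b at 35.4% to 43.8%. Rbl2 held 72.2% to 76.0% of pocket protein RPKM, Rb1 21.6% to 24.9% and Rbl1 2.43% to 3.53%. Ccnd1 and Ccnd3 were near each other at 33.5% to 42.6% and 37.9% to 43.3% of the D-type cyclins over the union of exons. With the longest transcript they were apart, Ccnd1 at 24.1% to 31.8% and Ccnd3 at 51.0% to 56.2%. The summed inhibitors were 6.53, 7.42 and 10.0 times the summed D-type cyclins.

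Muscle tissue also holds other cells. In GAS the 5 endothelial markers summed to 134 to 157 CPM, the 5 fibroblast markers to 477 to 566 CPM and the 5 red blood cell markers to 998 to 5213 CPM, while the 8 muscle markers summed to 107087 to 121197 CPM. The part of these cells in the levels of the 10 genes was not tested. The mean levels of the 24 replication and mitosis genes in GAS ran from 0.0515 CPM for Bub1 to 38.6 CPM for Rrm1, a subunit of ribonucleotide reductase, with Mki67 between 0.311 and 0.914 CPM.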

How the data were processed

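RNA was sequenced in 9 libraries. Per the study's methods and the labels, the authors trimmed reads with Trim Galore 0.6.6, aligned them to mm10 with HISAT2 2.2.1 and counted them on genes with featureCounts of Subread 2.0.1, and deposited the raw gene counts without normalization. Neither strand nor annotation release is given in the sources used here.

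Symbols, coordinates and lengths came from GENCODE M21 on the same assembly, in which 36429 of the 38293 genes listed for GAS and 45229 of the 46078 listed for cultured cells were found. CPM used TMM factors, computed separately for GAS and cultured cells. Comparisons used edgeR 4.0.16 (R 4.3.3) with its filter on low counts, TMM and the quasi-likelihood test without a replicate block. Benjamini-Hochberg adjustment ran over all genes tested, and the thresholds were those of the study. The code was checked on simulated counts with less spread between libraries than in these data. That check does not measure power here. In cultured cells 3 counts were worth 0.223 to 0.533 CPM, a limit for counting error only. Alternatives were RLE factors, DESeq2 1.42.0, other filters, the replicate block, a joint fit of cultured libraries, removal of ribosomal RNA genes, no minimum fold and each replicate left out. The members and pathway lists were chosen with earlier results of these data known. Named are all members and, per list and direction, up to 3 called genes with the largest change whose groups did not overlap, and the INK4 genes. Cdk4, Cdk6, Cdk7, Ccnh, Mnat1, Eda2r, Bax, Aen, Mdm2, E2f1, E2f8, Mki67, Bub1, Mef2a, Myod1 and Kcnq1ot1 were named after their values were seen. The labels call the samples biological replicates without naming animals or cultures, so the p-values measure only the spread between these libraries. Promoters came from RefSeq (GRCm38.p6) with Python 3.11.15. CUT&Tag data were not used here.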

Additional observations from a re-analysis of the deposited data

How the results depend on the processing

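The 3 members called in MT against MB kept their direction under every alternative, and Ccnd1 its call as well. Genes called higher numbered 1425, against 766 with at least 10 counts required in every library, and 962 to 4118 with a replicate left out, and those called lower numbered 887, against 270 to 1570 with a replicate left out (270 without MT replicate 1). Members called higher numbered 0 to 3 with a replicate left out, and members called lower 1 to 2 (2 also with DESeq2 and with no filter on low counts, when Rbl1 was added). The log2 fold change of Ccnd3 ran from -0.29 to 0.75 with a replicate left out, so its direction turned. Such fits moved the median of all genes by up to 0.92. Their filter kept 13102 to 18831 genes in place of 12921, so the set of genes tested changed as well.

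Of the pathway lists, the genes called lower went from 22 to 12 among replication and mitosis genes, from 9 to 5 among CDKs and cyclins, from 4 to 0 among E2F and DP genes and from 5 to 0 among p53 genes without MT replicate 1, a setting that also took the lower calls of the turnover list to 1 and of the myogenic list to 1. Those alternatives on lists were chosen after seeing the data.

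Same-numbered MT and MB libraries deviated with a correlation of -0.132 across genes. With the replicate block 1 member was called higher (Rb1, while Cdkn1a had an edgeR adjusted p of 0.0607), and with crossed replicate numbers, a fit chosen after seeing the data, 1 as well (Cdkn1a). For MB_lac and MB the correlation was 0.705 over 2 pairs, but the labels do not say that a number marks a shared culture. The replicate block gave 7 genes higher and 6 lower in place of 0, no member among them, and lowered the nominal p of Cdkn2c to 0.0189.

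For lactate, DESeq2 called 1 gene higher, as did edgeR with no filter on low counts, and 1 to 176 genes were called higher and 0 to 1 lower with a replicate left out. Log2 fold changes then ran from -0.61 to 0.33 for Ccnd1, -0.55 to 0.22 for Ccnd2, -0.51 to 0.93 for Ccnd3, -0.46 to 0.69 for Cdkn1a, -0.0542 to 0.0685 for Cdkn1b, -0.24 to 0.0301 for Rb1, -0.15 to 0.18 for Rbl1 and -0.37 to 0.40 for Rbl2, so the direction of these 8 turned. RLE size factors turned Cdkn1b to 0.0329 and Rbl1 to 0.0207, and DESeq2 turned them to 0.0330 and 0.0207. The cause was not tested. MB_lac replicate 2 had the fewest counts, 5198247, and depth as a limit was not tested.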
